A study of Homo sapiens with 4 samples.

Results

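The GATA factors and their FOG cofactors were followed in 4 RNA-seq libraries of human hematopoietic differentiation. The members are 8 genes taken by symbol from the 58274 genes of the deposited expression table: the 6 zinc finger transcription factors GATA1 to GATA6, and the 2 Friend of GATA genes, ZFPM1 (FOG1) and ZFPM2 (FOG2). All 8 had at least 1 FPKM (fragments per kilobase of transcript, scaled to the mapped fragments of the library) in at least 1 library, as had 17137 genes of the table, which are called the tested genes here. The libraries came from undifferentiated BC1 cells, APLNR+ cells of day 2, CD31+CD34+ cells of day 5 and CD43+ cells of day 8. BC1, a line of human induced pluripotent stem cells, gave rise to all of them, so they stand for 1 line, and the labels name no genetic change in it. Differentiation began in activinA and BMP4 and went on in VEGF and bFGF. APLNR+ cells are mesoderm, CD31+CD34+ cells are hemogenic endothelial progenitors (HEPs) and CD43+ cells are hematopoietic progenitor cells (HPCs). Each population had 1 library, so no difference below has a replicate check, and no test between populations was possible.

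GATA factors bind the DNA sequence GATA through a pair of zinc fingers. GATA1, GATA2 and GATA3 are known chiefly for blood: GATA2 keeps stem cells and progenitors and acts in endothelium, GATA1 drives erythroid, megakaryocytic, mast cell and eosinophil fates, and GATA3 drives T cell fate and is also found in trophoblast and other epithelia. GATA4, GATA5 and GATA6 are known for heart and endoderm. FOG proteins do not bind DNA at GATA sites themselves but bind the amino-terminal zinc finger of GATA factors and bring in the NuRD and CtBP corepressors. FOG1 works with GATA1 in red cells and platelets, and FOG2 with GATA4 in the heart. As GATA1 protein accumulates in erythroid cells it takes over sites held by GATA2, which is called the GATA switch.

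The libraries held between 19600000 and 23600000 mapped fragments, as recovered from the steps between low FPKM values, and between 13554 and 14335 genes with at least 1 FPKM. Markers broadly followed the labels, but some are not independent of the sorts: APLNR, PECAM1 (CD31), CD34 and SPN (CD43) are the antigens the cells were sorted on. The 4 pluripotency markers summed to 2481 FPKM in BC1 and were highest there, and POU5F1 was still at 573 FPKM in APLNR+. The 5 mesoderm markers summed to 1861 FPKM in APLNR+ and to at most 211 FPKM elsewhere, of which APLNR alone was 1073 and 209 FPKM. Of the others, MIXL1 was at 474 FPKM and EOMES at 205 FPKM in APLNR+ and both were under 1 FPKM elsewhere, and the 5 endothelial markers summed to 729 FPKM in CD31+CD34+, with CDH5, not used in the sort, at 224 FPKM. Of the 5 hematopoietic markers, 4 were highest in CD43+, while PTPRC, the gene of CD45, had at most 0.0349 FPKM in any library. Markers of other lineages in which GATA factors act were low or partial. The T lymphoid markers summed to at most 1.88 FPKM, and CD3G was listed at 0 throughout. Of the 4 mast cell markers, HDC was at 18.3 FPKM in CD43+ and the others were at or below 0.557 FPKM in every library. Of the 4 definitive endoderm markers, FOXA2 was at most at 0.588 FPKM and HNF4A at most at 1.63 FPKM. SOX17 was at 16.6 FPKM in APLNR+ cells and 11.8 FPKM in HEPs, and FOXA1 was highest in HEPs, at 1.56 FPKM. Of the 3 tested cardiac markers, MYL7 was highest in APLNR+, at 51.7 FPKM, and NKX2-5 in HEPs, at 69.2 FPKM. The third, TNNT2, was highest in BC1, at 22.5 FPKM, and fell by 3.42 on the log2 scale at the first step. The 4 endoderm markers summed to 1.34 FPKM in BC1, 19.0 in APLNR+, 13.8 in HEPs and 0.588 in HPCs, and the 5 cardiac markers to 24.5, 63.1, 72.6 and 1.69 FPKM. The part of such cells in the levels of GATA4, GATA5 and GATA6 was not tested. In bulk libraries, fewer cells of a type and less RNA per cell cannot be told apart.

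The 8 genes divided into successive waves. None was highest in BC1, where only ZFPM1 reached 1 FPKM. GATA4 and GATA6 were highest in APLNR+, GATA2, GATA3 and GATA5 in CD31+CD34+, and GATA1, ZFPM1 and ZFPM2 in CD43+. Among all tested genes, 27.7% peaked in BC1, 22.7% in APLNR+ mesoderm, 25.5% in HEPs and 24.0% in HPCs. The number of members with at least 1 FPKM was 7 in APLNR+ mesoderm, 8 in HEPs and 7 in HPCs.

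**Figure D1:**
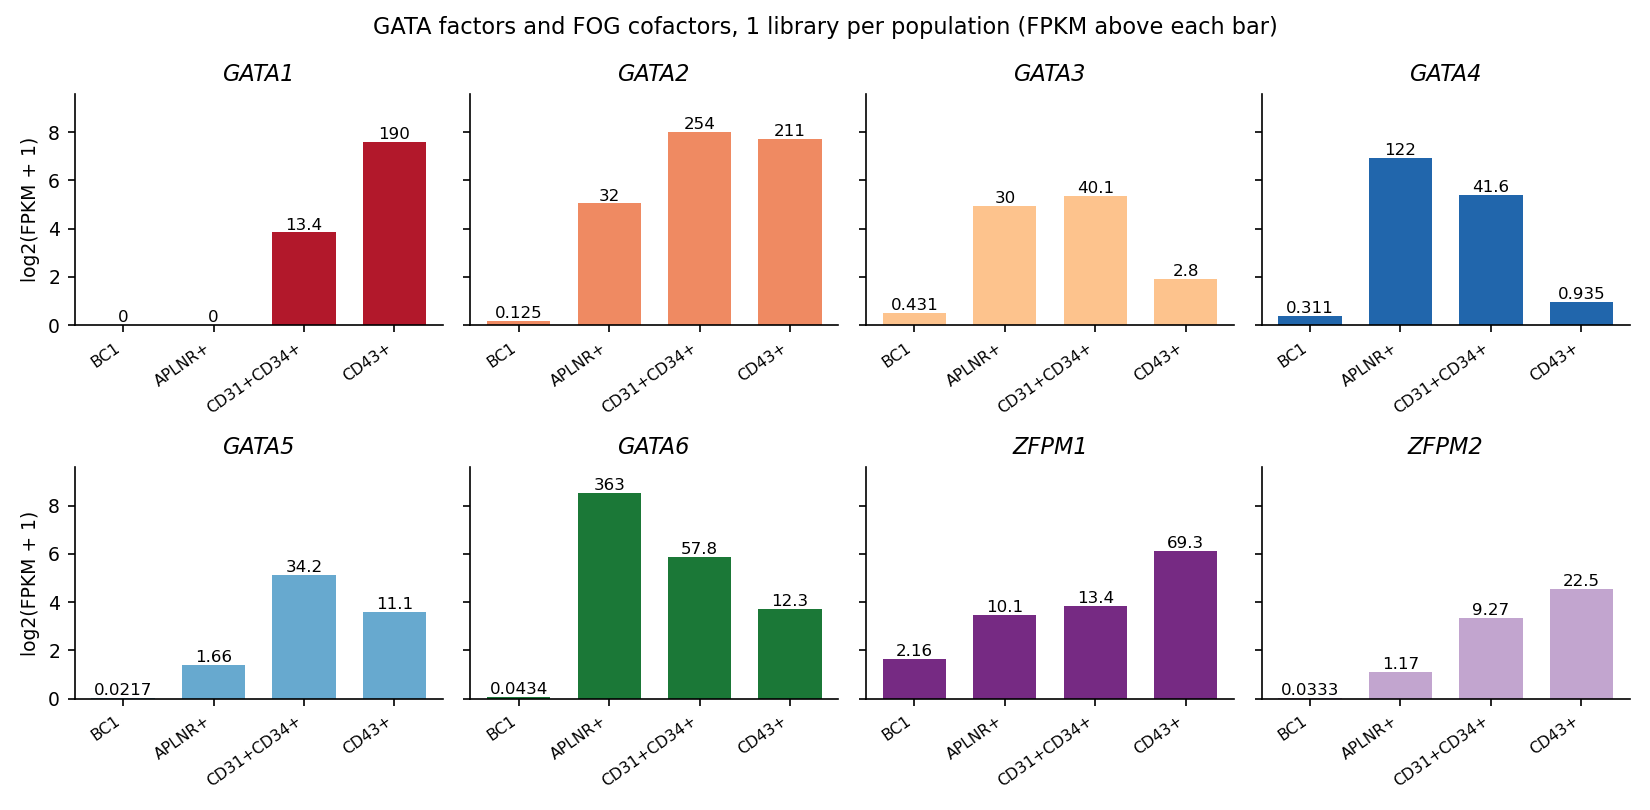
Level of each GATA and FOG gene as log2(FPKM + 1) on the y axis, in the 4 populations on the x axis, with 1 library per bar and the FPKM printed above it. GATA6 and GATA4 peaked in APLNR+ at 363 and 122 FPKM, GATA2 in CD31+CD34+ at 254 FPKM, and GATA1 in CD43+ at 190 FPKM.

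GATA1 (chromosome X, 48786554 to 48794311, plus strand, GRCh38), the master factor of erythroid and megakaryocytic cells, was listed at 0 FPKM in BC1 and in APLNR+, at 13.4 FPKM in CD31+CD34+ and at 190 FPKM in CD43+. It was thus not seen before the HEP stage, and 3 fragments, the floor used here, would have stood for 0.144 FPKM in BC1 and 0.132 FPKM in APLNR+. From CD31+CD34+ to CD43+ it rose 14.2-fold, and the 95% counting interval was 12.7 to 15.9. Intervals were computed from approximate fragments, by the exact Clopper-Pearson method, and cover counting error only. In CD43+ GATA1 stood above 97.4% of the tested genes.

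GATA2 (chromosome 3, 128479427 to 128493185, minus strand), the factor of stem cells, progenitors and endothelium, was at 0.125 FPKM in BC1 cells, 32.0 FPKM in APLNR+ mesoderm, 254 FPKM in HEPs and 211 FPKM in HPCs. It was low only in BC1 and close to its highest level in both late populations. Its rise was 255-fold (99.3 to 940) at the first step, from about 3.99 fragments in BC1, and 7.92-fold (7.44 to 8.43) at the second. At the third step it was 1.20-fold lower (1.16 to 1.24), so GATA2 did not fall by the threshold used here while GATA1 rose. That threshold was a change of at least 1 on the log2(FPKM + 1) scale, and "rose" and "fell" are used for changes past it. The log2 change of GATA2 was -0.26, with a counting interval of -0.31 to -0.22. It was -0.15 with upper-quartile scaling and -0.38 with scaling to a fixed sum. Both lay outside that interval and under the threshold, so the size of this change depends on the scaling.

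The promoters of these 2 genes are shown because the balance between GATA1 and GATA2 changed at the last step. They were read from RefSeq for GRCh38.p14, from 250 bases before to 50 bases after a start site, in the direction of transcription, with each CG dinucleotide in capitals. The GATA1 window is chrX:48786340-48786639 on the plus strand, and the GATA2 window, the first of its 2, is chr3:128493152-128493451 on the minus strand.
GATA1: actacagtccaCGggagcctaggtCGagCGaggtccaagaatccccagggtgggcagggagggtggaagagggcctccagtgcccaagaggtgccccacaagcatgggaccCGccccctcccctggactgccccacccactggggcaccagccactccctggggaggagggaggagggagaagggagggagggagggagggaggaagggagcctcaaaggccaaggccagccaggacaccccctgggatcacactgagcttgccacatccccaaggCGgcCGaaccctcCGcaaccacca
GATA2: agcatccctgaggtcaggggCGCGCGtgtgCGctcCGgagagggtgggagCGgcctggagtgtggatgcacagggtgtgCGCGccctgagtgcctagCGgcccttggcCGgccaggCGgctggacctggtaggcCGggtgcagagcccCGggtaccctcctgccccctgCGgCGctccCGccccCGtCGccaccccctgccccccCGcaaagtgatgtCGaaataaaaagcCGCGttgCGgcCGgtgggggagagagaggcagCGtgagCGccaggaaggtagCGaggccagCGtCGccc
The GATA1 window held 7 CG dinucleotides and the GATA2 window 29, against a median of 14 over 35116 RefSeq windows of the same length. No methylation was measured here.

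GATA3 (chromosome 10, 8053604 to 8075198, plus strand) was at 0.431 FPKM in BC1 cells, 30.0 FPKM in APLNR+ mesoderm, 40.1 FPKM in HEPs and 2.80 FPKM in HPCs. It was high in the 2 middle populations and low in the first and the last. The rise at the first step was 69.6-fold (45.0 to 114), and the fall at the last step was 14.3-fold (12.1 to 17.1). Between APLNR+ and CD31+CD34+ it was 1.34-fold higher (1.25 to 1.43), a log2 change of 0.41 that did not pass the threshold. Among 12 trophoblast and amnion genes known to be expressed with GATA3, 4 were tested, of which only TFAP2A rose in APLNR+, with a log2 change of 1.47 to 1.85 FPKM. In the same step KRT7 fell by 3.06 and GABRP by 1.76.

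GATA6 (chromosome 18, 22169443 to 22202528, plus strand), a factor of endoderm and heart, was at 0.0434 FPKM in BC1 cells, 363 FPKM in APLNR+ mesoderm, 57.8 FPKM in HEPs and 12.3 FPKM in HPCs. Its peak in APLNR+ was the highest level of any member in any library and stood above 98.7% of the tested genes. The ratio of APLNR+ to BC1 was 8358 (2475 to 57505), from about 2.26 fragments in BC1. It then fell 6.27-fold (6.06 to 6.50) and 4.69-fold (4.33 to 5.10).

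GATA4 (chromosome 8, 11676959 to 11760002, plus strand), the partner of GATA6 in heart and endoderm, was at 0.311 FPKM in BC1 cells, 122 FPKM in APLNR+ mesoderm, 41.6 FPKM in HEPs and 0.935 FPKM in HPCs. Like GATA6 it was highest in APLNR+ and lower at each later step. After a rise of 390-fold (179 to 1067) it fell 2.92-fold (2.71 to 3.15) and then 44.4-fold (28.3 to 73.9). Its last fall was larger than that of GATA6, and the counting intervals of the 2 falls did not overlap.

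GATA5 (chromosome 20, 62463497 to 62475970, minus strand), which acts in endocardium and endoderm, was at 0.0217 FPKM in BC1 cells, 1.66 FPKM in APLNR+ mesoderm, 34.2 FPKM in HEPs and 11.1 FPKM in HPCs. Unlike GATA4 and GATA6 it was low in APLNR+ and highest in CD31+CD34+. It rose 20.7-fold (16.6 to 26.1) at the second step and fell 3.07-fold (2.79 to 3.39) at the third. The ratio of APLNR+ to BC1 was 76.2 (13.3 to 3074), since the BC1 value stood for about 1 fragment.

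ZFPM1 (chromosome 16, 88453317 to 88537016, plus strand), the gene of FOG1, was at 2.16 FPKM in BC1 cells, 10.1 FPKM in APLNR+ mesoderm, 13.4 FPKM in HEPs and 69.3 FPKM in HPCs. It was the only member above 1 FPKM before differentiation and was highest in the population where GATA1 was highest. It rose 4.67-fold (2.81 to 8.20) at the first step and 5.16-fold (4.26 to 6.30) at the last. In between it was 1.33-fold higher (1.008 to 1.75), a change under the threshold. Its intervals rest on the median length of its coding transcripts, 685.5 bases. With the longest, 5380 bases, the last interval narrows to 4.89 to 5.45.

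ZFPM2 (chromosome 8, 104590733 to 105804532, plus strand), the gene of FOG2, was at 0.0333 FPKM in BC1 cells, 1.17 FPKM in APLNR+ mesoderm, 9.27 FPKM in HEPs and 22.5 FPKM in HPCs. It was higher in each population than in the one before, as ZFPM1 was, and was highest where GATA4, its cardiac partner, was at 0.935 FPKM. Its rise was 7.92-fold (6.32 to 10.04) at the second step and 2.43-fold (2.23 to 2.66) at the third. At the first step the ratio was 35.1 (9.93 to 254), from about 2.21 fragments in BC1.

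At the first step, from BC1 to APLNR+, 7 of the 8 members rose and none fell, while 9.15% of the tested genes rose and 9.32% fell. At the second step, 4 members rose (GATA1, GATA2, GATA5 and ZFPM2) and 2 fell (GATA4 and GATA6), against 13.0% and 11.4% of the tested genes. At the third step, 3 members rose (GATA1, ZFPM1 and ZFPM2) and 4 fell (GATA3, GATA4, GATA5 and GATA6), against 7.63% and 13.5%. The median log2 change of the members was 3.12, 1.32 and -0.90 at the 3 steps, and that of the tested genes was 0.00, 0.01 and -0.08. Consecutive steps share a library, so their changes are not independent of each other. Of the 4 members that rose at the second step, GATA1 and ZFPM2 rose again at the third, GATA5 fell and GATA2 changed by less than the threshold.

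**Figure D2:**
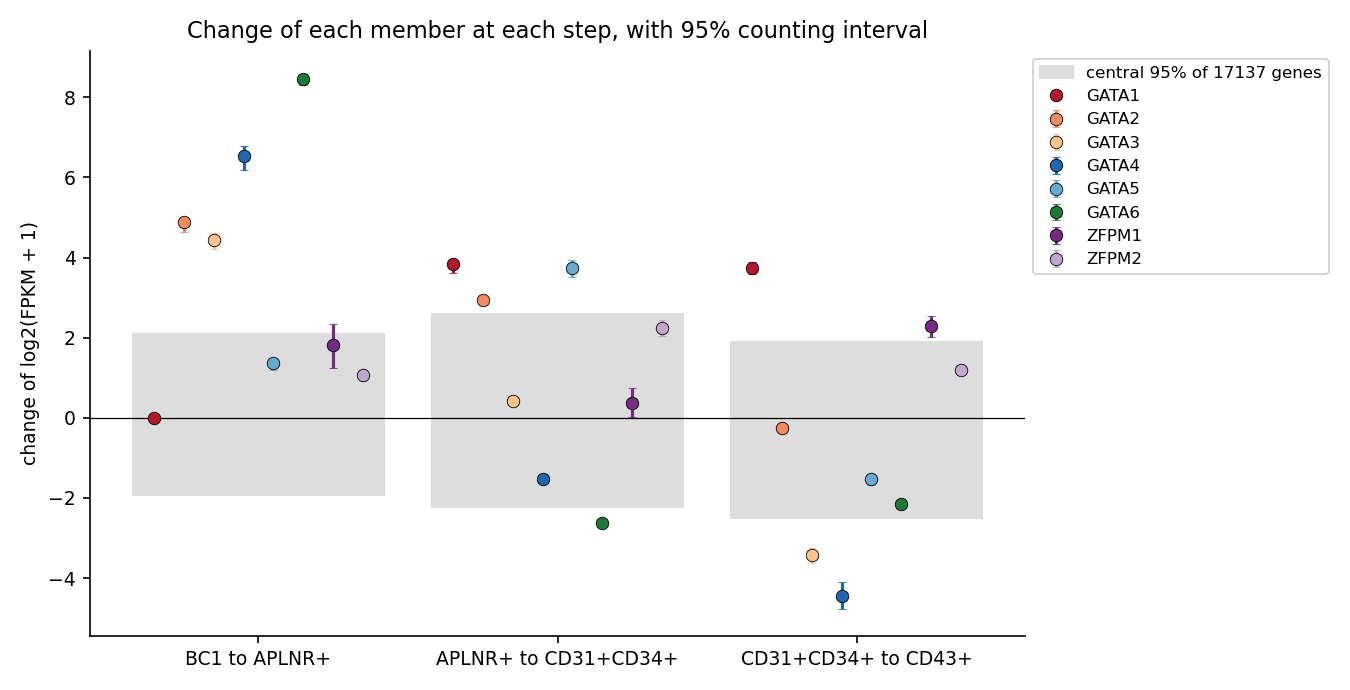
Change of log2(FPKM + 1) of each member on the y axis at the 3 steps on the x axis. Bars are 95% counting intervals, 1 library was compared with 1 at each step, and the grey band holds the central 95% of the 17137 tested genes. GATA6 had the largest rise, 8.45 at the first step, and GATA4 the largest fall, -4.46 at the last.

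The balance of the family turned from the cardiac and endoderm factors to the blood factors. FPKM is scaled by transcript length, so levels of different genes can be added. GATA1, GATA2 and GATA3 together were at 0.557 FPKM in BC1 cells, 62.0 FPKM in APLNR+ mesoderm, 307 FPKM in HEPs and 404 FPKM in HPCs. GATA4, GATA5 and GATA6 together were at 0.377 FPKM in BC1 cells, 486 FPKM in APLNR+ mesoderm, 134 FPKM in HEPs and 24.4 FPKM in HPCs. The share of GATA1 to GATA3 in the summed level of all 6 was thus 11.3% in APLNR+ mesoderm, 69.7% in HEPs and 94.3% in HPCs. In BC1 the sum of all 6 was only 0.933 FPKM, too low for a share to be read.

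The summed level of the 6 factors itself varied much less after differentiation had begun. It was 548 FPKM in APLNR+ mesoderm, 441 FPKM in HEPs and 428 FPKM in HPCs. The leading factor was GATA6 in APLNR+, with 66.2% of the sum, and GATA2 in CD31+CD34+, with 57.5%. In CD43+ GATA2 held 49.3% of the sum and GATA1 44.3%. Of GATA1 and GATA2 together, GATA1 made up 5.01% (95% counting interval 4.50 to 5.56) in CD31+CD34+ and 47.3% (46.4 to 48.3) in CD43+. The 2 intervals did not overlap, and GATA2 still had the higher level in CD43+.

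**Figure D3:**
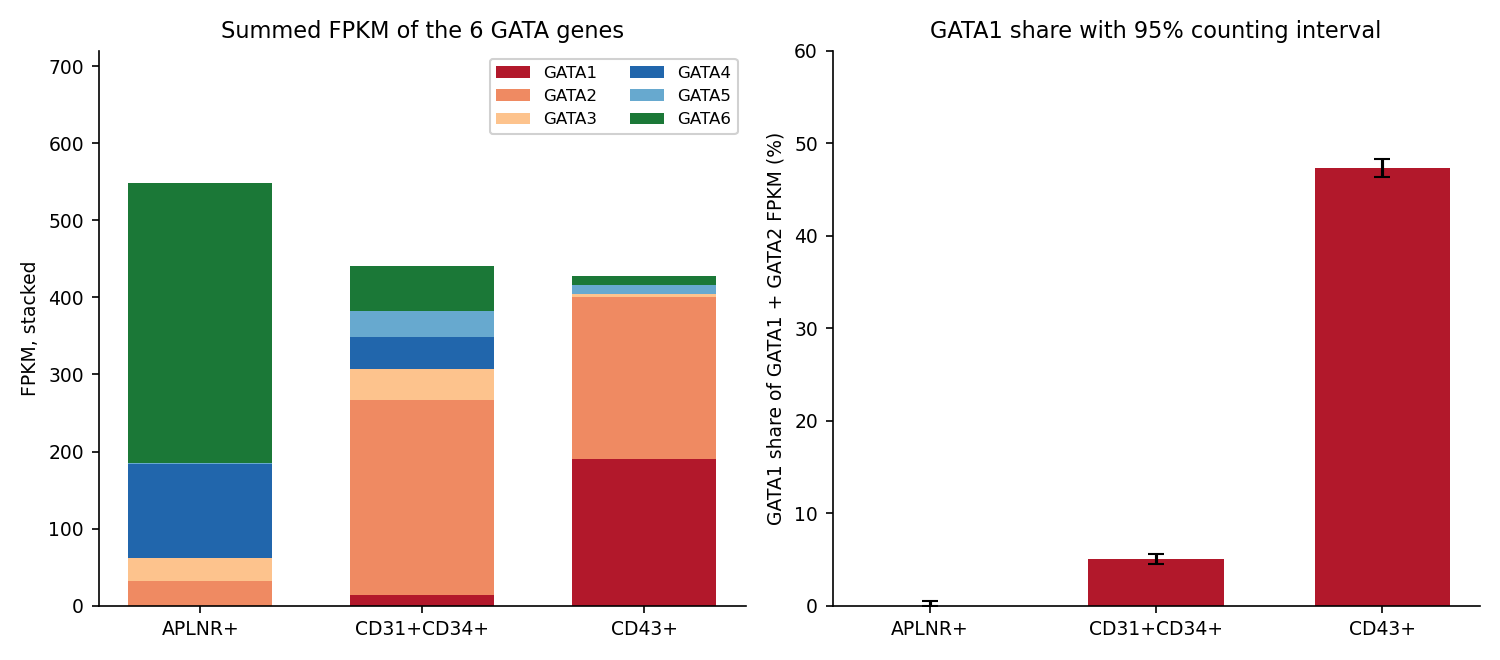
Left, FPKM of the 6 GATA genes stacked on the y axis for 3 populations on the x axis, 1 library each. Right, the GATA1 share of GATA1 plus GATA2 in percent with its 95% counting interval. GATA6 and GATA4 fill most of the APLNR+ bar, GATA2 and GATA1 nearly all of the CD43+ bar, and the share goes from 5.01% in CD31+CD34+ to 47.3% in CD43+.

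The FOG genes gained on the GATA genes after the APLNR+ stage, having fallen behind them before it. ZFPM1 and ZFPM2 together were at 2.20 FPKM in BC1 cells, 11.3 FPKM in APLNR+ mesoderm, 22.7 FPKM in HEPs and 91.8 FPKM in HPCs. The ratio of summed GATA to summed FOG levels was 0.425 in BC1, where both sums were low, 48.6 in APLNR+ mesoderm, 19.4 in HEPs and 4.66 in HPCs. ZFPM2 made up 10.4% (7.84 to 13.6) of the FOG level in APLNR+ mesoderm, 40.8% (36.4 to 45.6) in HEPs and 24.5% (22.8 to 26.3) in HPCs. FOG2 transcripts therefore took their largest share in the HEP library, while their level was highest in CD43+.

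Partners that bind GATA factors on DNA moved mainly at the second step. The list held 14 genes of the LDB1 complex and other hematopoietic partners, all tested. Of these, 5 rose and none fell from BC1 to APLNR+, 10 rose and none fell from APLNR+ to CD31+CD34+, and 7 rose and 1 fell from HEPs to HPCs. The median log2 change was 0.41, 3.19 and 0.91. Of all tested genes, 9.15%, 13.0% and 7.63% rose at the 3 steps, and 9.32%, 11.4% and 13.5% fell. FLI1, an ETS factor of endothelium and megakaryocytes, went from 2.95 to 316 FPKM at the second step, a rise of 107-fold (94.0 to 123). LMO2, the bridging protein of the complex, went from 0.459 to 107 FPKM, or 232-fold (145 to 399), and TAL1, its helix-loop-helix factor, went from 0.0608 to 71.2 FPKM.

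At the third step KLF1, an erythroid factor, rose by 1.88 on the log2 scale, CBFA2T3 by 1.82 and SPI1, the myeloid factor that antagonises GATA1, by 1.67. The 1 gene that fell was SSBP3, which went from 96.3 to 44.6 FPKM. LDB1 itself was present throughout, at 80.3 FPKM in BC1 cells, 106 FPKM in APLNR+ mesoderm, 134 FPKM in HEPs and 270 FPKM in HPCs.

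The corepressors that FOG proteins recruit changed far less. Of 15 NuRD and CtBP genes, all tested, 2 rose and 1 fell at the first step, none changed by the threshold at the second, and 1 fell at the third. Of all tested genes, 9.15% rose and 9.32% fell at the first step, 13.0% and 11.4% at the second, and 7.63% and 13.5% at the third. CHD3, a remodelling subunit, rose 3.29-fold (2.92 to 3.72) at the first step and MTA2, with 38.3 and 77.9 FPKM, just passed the threshold. MTA3 fell 2.49-fold (2.30 to 2.69) at the first step and 3.40-fold (3.01 to 3.84) at the third, from 29.1 to 8.56 FPKM. The other 9 proteins with a GATA-type zinc finger, 5 of which are also in the NuRD list, had 1 rise and 1 fall at the first step, no call at the second and 1 fall at the third. The calls were those of MTA2 and MTA3 again.

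Genes known as GATA1 targets in erythroid and megakaryocytic cells rose mainly at the last step. Of 16 genes 15 were tested. At the first step 2 rose and 2 fell, at the second 10 rose and 1 fell, and at the third 13 rose and none fell, with median log2 changes of 0.00, 1.29 and 3.22. Of all tested genes, 9.15%, 13.0% and 7.63% rose at these steps, and 9.32%, 11.4% and 13.5% fell. PF4, a platelet chemokine, went from 14.4 to 1674 FPKM at the third step, or 116-fold (96.1 to 141). GP1BB, a subunit of the platelet von Willebrand receptor, went from 1.34 to 89.3 FPKM, or 66.7-fold (48.9 to 93.5), and GP9, another subunit, from 0.625 to 53.2 FPKM, or 85.2-fold (44.6 to 187). EPOR, the erythropoietin receptor, did not pass the threshold at this step, with 35.2 and 30.6 FPKM. The band 3 gene SLC4A1, a late erythroid gene, reached only 1.503 FPKM in CD43+. ITGA2B, GFI1B and KLF1 are in this list and among the hematopoietic markers, and KLF1 is also in the partner list. All 4 tested hematopoietic markers rose at the second step, where GATA1 was first seen, and all 4 rose again at the third. The 5 hematopoietic markers already summed to 126 FPKM in the CD31+CD34+ library. The part of cell type in the rises of GATA1 and of the targets was not tested at either step.

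Several of these genes were present before GATA1 was. ITGA2B was at 10.2 FPKM in BC1 and 3.74 FPKM in APLNR+, GYPB was at 17.1 FPKM in APLNR+, and KLF1 was at 7.39 FPKM in APLNR+, while GATA1 was listed at 0 in both libraries.

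Genes known as GATA2 targets in endothelium and progenitors rose together at the second step. Of 12 genes 11 were tested, and all 11 rose at the second step, where 13.0% of the tested genes did. At the first step 5 had already risen (HHEX, LYL1, RUNX1, FLI1 and KDR) and KIT had fallen by 1.34. The list shares 4 genes with the partner list. FLI1, TAL1 and PECAM1 had the largest rises, with log2 changes of 6.33, 6.09 and 6.01. PECAM1 encodes CD31, on which the HEPs were sorted, so its rise is not independent of the sort. It was at 93.1 FPKM in HEPs and 126 FPKM in HPCs. All 5 endothelial markers rose at the second step, from a sum of 4.78 to 729 FPKM. The part of endothelial identity in the rises of the 11 genes was not tested. At the third step 3 rose and 4 fell while GATA2 changed little. TAL1, RUNX1 and LYL1, blood factors, rose by 1.36, 1.18 and 1.17. KDR, the VEGF receptor, fell 15.0-fold (14.5 to 15.4), VWF fell 8.88-fold (7.86 to 10.1) and MECOM fell 5.09-fold (3.74 to 7.05). Endothelial markers as a whole moved at the same step, 4 of 5 falling, from a sum of 729 to 261 FPKM, and their part in these falls was not tested.

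Targets and partners of GATA4 and GATA6 in heart and endoderm rose with them in APLNR+ and then divided. Of 19 genes 14 were tested. At the first step 10 rose and none fell, at the second 4 rose and 6 fell, and at the third 1 rose and 6 fell, with medians of 1.78, -0.29 and -0.83. Of all tested genes, 9.15%, 13.0% and 7.63% rose at these steps, and 9.32%, 11.4% and 13.5% fell. BMP4, a ligand also added to the medium at this stage as protein, rose 167-fold (123 to 232) in APLNR+, and MYL7, an atrial myosin light chain, 53.2-fold (24.0 to 148). At the second step BMP4 fell 25.3-fold (22.6 to 28.4) and MYL7 37.2-fold (19.6 to 80.9), and AFP, a yolk sac and liver protein, fell 77.8-fold (40.0 to 175). NKX2-5, a cardiac partner of GATA4, instead rose 7.08-fold (6.03 to 8.36) at the second step and fell 56.2-fold (36.6 to 91.0) at the third. The 1 gene that rose at both later steps was MEF2C, which is also expressed in endothelium and megakaryocytes, by 3.93 and 2.41.

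**Figure D4:**
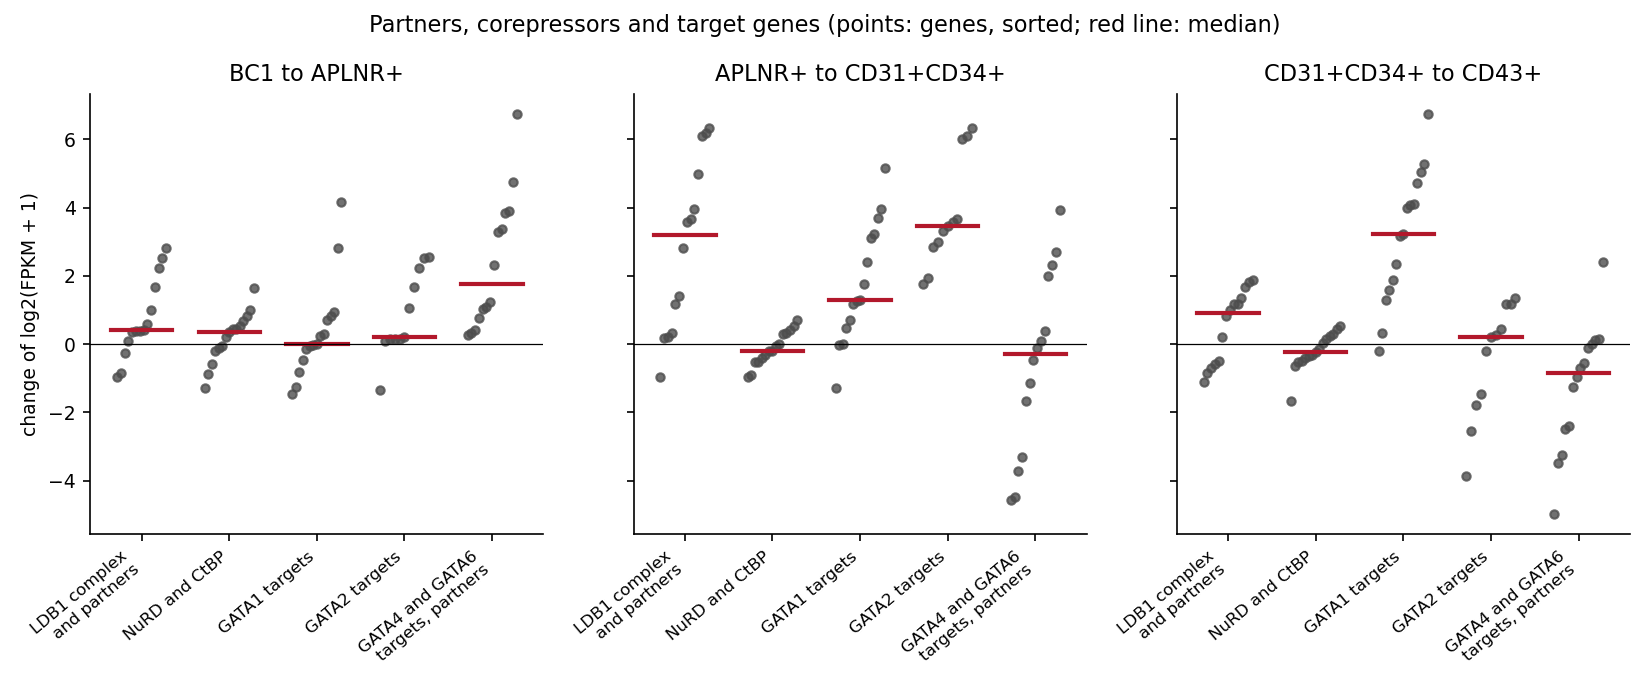
Change of log2(FPKM + 1) on the y axis for the tested genes of 5 lists on the x axis, at the 3 steps. Each point is 1 gene, sorted within its list, and the red line is the median. The GATA2 targets lie entirely above 1 at the second step, the GATA1 targets have a median of 3.22 at the third, and the medians of the NuRD and CtBP genes lie between -0.24 and 0.37.

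The promoters of 4 GATA1 targets are shown because the list moved together at the last step. The motifs searched were AGATAA or TGATAA or AGATAG or TGATAG, on both strands. No other motif was searched. They were found in 24.97% of the 35116 RefSeq windows. Matches are in capitals, and an opposite-strand match reads as TTATCT or TTATCA or CTATCT or CTATCA. The windows are chr22:19723289-19723588 on the plus strand for GP1BB, chr19:12887152-12887451 on the minus strand for KLF1, chr17:44389600-44389899 on the minus strand for ITGA2B and chrX:55030928-55031227 on the minus strand for ALAS2. These 4 were chosen after their values and matches had been seen.
GP1BB: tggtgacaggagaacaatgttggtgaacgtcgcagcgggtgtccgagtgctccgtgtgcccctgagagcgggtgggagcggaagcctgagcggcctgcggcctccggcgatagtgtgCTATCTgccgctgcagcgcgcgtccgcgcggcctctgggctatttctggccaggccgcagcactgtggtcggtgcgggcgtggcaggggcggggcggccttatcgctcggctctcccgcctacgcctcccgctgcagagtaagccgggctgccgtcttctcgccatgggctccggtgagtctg
KLF1: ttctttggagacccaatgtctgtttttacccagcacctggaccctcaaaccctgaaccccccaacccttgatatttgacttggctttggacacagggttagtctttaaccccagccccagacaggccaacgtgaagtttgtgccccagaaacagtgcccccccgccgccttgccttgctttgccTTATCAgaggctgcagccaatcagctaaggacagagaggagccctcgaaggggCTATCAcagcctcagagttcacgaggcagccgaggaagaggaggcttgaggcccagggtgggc
ITGA2B: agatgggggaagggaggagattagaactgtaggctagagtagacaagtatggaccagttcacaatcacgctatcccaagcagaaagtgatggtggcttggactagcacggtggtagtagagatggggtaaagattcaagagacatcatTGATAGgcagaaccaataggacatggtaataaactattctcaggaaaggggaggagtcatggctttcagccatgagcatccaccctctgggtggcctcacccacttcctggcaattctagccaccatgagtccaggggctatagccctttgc
ALAS2: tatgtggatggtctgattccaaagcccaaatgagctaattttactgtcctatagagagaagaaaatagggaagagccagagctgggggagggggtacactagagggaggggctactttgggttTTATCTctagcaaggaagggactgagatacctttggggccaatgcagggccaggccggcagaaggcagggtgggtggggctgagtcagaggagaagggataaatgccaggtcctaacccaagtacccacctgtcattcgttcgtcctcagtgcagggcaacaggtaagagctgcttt
The match began 133 bases before the start site in GP1BB, 66 and 13 in KLF1, 102 in ITGA2B and 127 in ALAS2. From CD31+CD34+ to CD43+ the 4 genes rose 66.7-fold, 3.83-fold, 16.1-fold and 32.8-fold.

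Of the 16 GATA1 targets 9 had a RefSeq window, and 8 of these held a match in at least 1 window, or 10 of 11 windows. A match did not go with a rise in every gene: EPOR holds one and had a log2 change of -0.20 at the third step, EPB42 holds one and was not tested, and GP9, the gene without a match, rose by 5.06. Of the GATA2 targets 9 had windows, 7 of 14 windows with a match, and of the GATA4 and GATA6 list 13 had windows, 11 of 23 with a match. Such genes are known as targets in part because sites were found near them, so these shares are not independent of the lists. Of the 8 members 5 had windows, 11 in all, and none of them held these letters: GATA1, GATA2, GATA3, GATA6 and ZFPM1. GATA4, GATA5 and ZFPM2 had none to search. A match is a description and no binding was measured.

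Antisense partners of GATA2, GATA3 and GATA6 followed their genes. GATA2-AS1 was at 0.0561 FPKM in BC1 cells, 10.9 FPKM in APLNR+ mesoderm, 45.5 FPKM in HEPs and 37.7 FPKM in HPCs, the order of levels that GATA2 has. GATA3-AS1 was at 0.104, 3.48, 4.96 and 0.234 FPKM in the same libraries, and GATA6-AS1 at 0.228, 174, 19.3 and 1.23 FPKM. Each was highest in the library where its partner was highest. ZFPM2-AS1 was not tested: it was at 0.121 FPKM in APLNR+ and at 0 in BC1, HEPs and HPCs, while ZFPM2 was highest in HPCs. GATA6-AS1 was at 47.9% of the GATA6 level in APLNR+ and 33.3% in HEPs. The library kit named in the labels does not mark strand, so fragments of overlapping parts cannot be assigned. The deposited locus of GATA2-AS1, chr3:128489212-128502348, overlaps that of GATA2. GENCODE 29 gives 0 shared exonic bases for the first 2 pairs and 240 for GATA6 and GATA6-AS1. Its GATA6-AS1 model, with 3173 exonic bases, is longer than the deposited locus, chr18:22166898-22168968. The deposited locus lies 475 bases from GATA6 and does not overlap it.

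**Figure D5:**
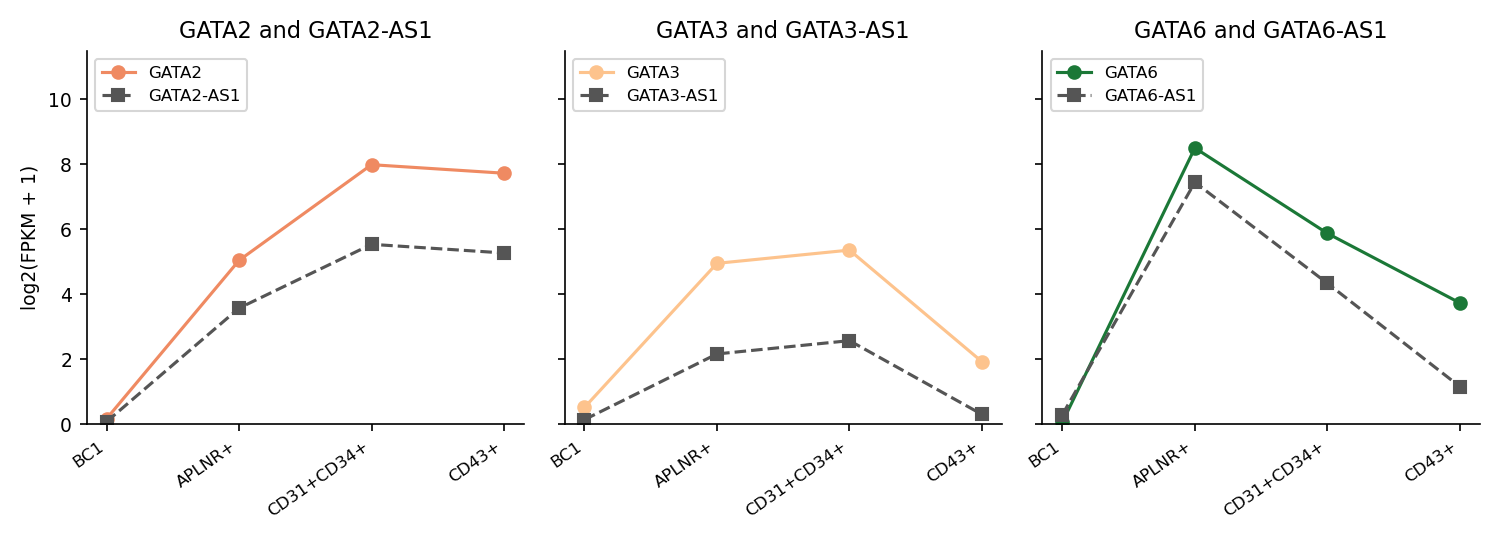
Log2(FPKM + 1) on the y axis of GATA2, GATA3 and GATA6 (circles) and their antisense RNAs (squares) in the 4 populations on the x axis, 1 library per point. Each antisense RNA peaked with its partner, at 45.5 FPKM for GATA2-AS1, 4.96 FPKM for GATA3-AS1 and 174 FPKM for GATA6-AS1.

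Other genes near the members gave mixed changes. Within 100000 bases lay 28 tested genes, 17 of them protein-coding, antisense partners included. At the first step 6 of the 28 rose and 3 fell (9.15% and 9.32% of all tested genes), at the second 6 rose and 4 fell (13.0% and 11.4%), and at the third 5 rose and 7 fell (7.63% and 13.5%). The 3 antisense partners gave 3, 1 and 0 of these rises and 0, 1 and 2 of the falls. Chosen after their values were seen, TAF3, the coding gene next to GATA3, stayed between 2.75 and 3.85 FPKM, and WAS, a hematopoietic cytoskeleton gene 95127 bases from GATA1, was at 0.454, 0.385, 11.97 and 76.3 FPKM. LRP12, 1709 bases from ZFPM2, was at 4.87, 6.83, 7.32 and 33.1 FPKM, and rose only at the third step.

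Each member was also set against the 8922 protein-coding genes with at least 10 FPKM in a library, by the root mean squared difference of log2(FPKM + 1) over the 4 libraries, which share depth and length scaling. The genes most like GATA1 were C11orf21 (0.25), MPIG6B (0.31), a platelet receptor gene, and TSPAN32 (0.34). Those most like GATA2 were HOXB3 (1.03), LYL1 (1.21) and CDH11 (1.38). The measure compares levels and not only the order of levels. GATA3 was most like NRP1 (0.26), a VEGF co-receptor gene, ITGA9 (0.45) and CNTFR (0.61). GATA4 was most like WLS (0.61), SAMD11 (0.74) and IRX3 (0.81), and GATA6 was most like BMPER (1.11), IRX3 (1.15) and FAM89A (1.18).

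GATA5 was most like MEIS2 (0.23), RHOJ (0.35) and GIPR (0.44). ZFPM1 was most like DUSP1 (0.46), PSTPIP2 (0.47) and ZFP36 (0.51), and ZFPM2 was most like SLC9A9 (0.31), BAALC (0.43) and ENDOD1 (0.44). Among the members themselves the closest pair was GATA5 and ZFPM2 (1.02), followed by GATA3 and GATA4 (1.11) and GATA4 and GATA6 (1.62), while GATA1 and GATA4 were farthest apart (4.86). With 4 libraries such likeness is a description only.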

How the data were processed

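Total RNA of 4 populations, 1 library each, was sequenced after preparation with the TruSeq RNA kit of Illumina. The authors deposited gene-level FPKM values in a table of 58365 rows, in which 90 gene identifiers stood on several rows, none of them a member, and rows of one identifier were summed. The labels' processing notes name BWA, Bowtie, RSEM and hg19, with no roles. The loci in the table match GENCODE release 29, so GRCh38 positions are printed, 1-based. The GATA3 identifier has another version there, and the GATA6-AS1 locus another extent.

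Values were analysed as log2(FPKM + 1), which understates changes of low genes. Genes with at least 1 FPKM in a library were tested for a change of at least 1 on this scale, which is a size rule and not a statistical test. Depth, 19600000 to 23600000 mapped fragments, was fitted to low values of genes with a single transcript of at least 1000 bases, with 255 to 285 bases taken off the length, and from 83.7% to 85.6% of these values lay within 0.1 of a whole number. The grid of this fit and the range of low values were changed once after a first fit had been seen. Approximate fragments, from the median coding transcript length, gave exact Clopper-Pearson 95% intervals, with a floor of 3 fragments. They cover counting error only, not variation between cultures or sorts. Calls and the depth fit were checked on simulated data with Python 3.11.15, numpy 2.4.6, pandas 2.3.3 and scipy 1.17.1.

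All members were named. For each list the 3 largest rises and falls at the step described were eligible, and for each member the 3 nearest genes. Other genes named, and the searches of neighbours, antisense overlap and promoters, were chosen after values were seen. The members and lists were chosen with earlier results of these data known. 1 gene of the lists is counted but not reported here by name.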

Additional observations from a re-analysis of the deposited data

How the results depend on the processing

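No member changed direction at any of the 3 steps with a pseudocount of 0.1, no filter, a filter of 5 FPKM, scaling to a fixed sum (TPM), upper-quartile scaling, or the largest row of a gene kept. The counts of members that rose and fell were unchanged under these settings, but the shares of all genes beside them were not. For rises at the second step the share was 19.2% with the pseudocount of 0.1 and 3.83% with no filter, against 13.0%. For falls at the third step it was 20.4% and 3.98%, against 13.5%. With a threshold of 2 in place of 1, 4 members rose and 0 fell at the first step (2.68% and 2.29% of the tested genes). At the second step 4 rose and 1 fell (4.08% and 3.15%), and at the third 2 rose and 3 fell (2.28% and 4.32%). By construction no count could grow. Upper-quartile scaling moved the summed level of GATA4 to GATA6 to 473 FPKM in mesoderm and 127 FPKM in HEPs, beyond counting error. It moved that of GATA1 to GATA3 to 292 FPKM in HEPs and 415 FPKM in HPCs, also beyond counting error. The order of the libraries stayed the same in each of these 2 sums. The sum of all 6 was then higher in HPCs than in HEPs, the reverse of the order as deposited. The pseudocount of 0.1 moved the log2 changes of members with low values most, that of GATA6 at the first step to 11.31. It also replaced at least 2 of the 3 nearest genes of 5 members (GATA1, GATA3, GATA5, GATA6 and ZFPM2). TPM scaling put the median change of all tested genes at the last step at -0.19, against -0.08 as deposited. No paired analysis was possible because each population had 1 library. The BC1 levels of GATA5, GATA6 and ZFPM2 rest on fewer than 3 fragments, so the size of their rise from BC1 is poorly resolved at this depth.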
